A study of Homo sapiens with 28 samples.

Results

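The genes described here were 57 genes of the G2 phase and of mitosis, chosen by name for their known roles. Earlier results of these data were known when they were chosen, so the list is not independent of the data. The genes were found by the gene symbol annotated to each probe set of the arrays. All 57 of the 57 had a tested probe set, out of 8024 genes tested in all. Expression was measured on 28 one-colour oligonucleotide arrays, 2 for each of 14 groups, in 2 human non-small cell lung cancer lines. In H1299 cells the groups were azacitidine at 0.3, 1 and 3 µM, decitabine at 0.3, 1 and 3 µM, and the DMSO vehicle. In A549 cells the groups were the same: azacitidine at 0.3, 1 and 3 µM, decitabine at 0.3, 1 and 3 µM, and the DMSO vehicle. Exposure lasted 48 h in the drug groups, with drug renewed daily, and the labels give no time for the vehicle arrays. Each line stands for 1 established tumour cell line grown alone, and no untreated cells without vehicle were analysed here. Azacitidine and decitabine are cytidine analogues that differ in the sugar: azacitidine is the ribose nucleoside and decitabine its deoxyribose form.

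As background, the genes of G2 and mitosis are transcribed in a wave that starts in S phase and peaks as cells divide. Cyclins A and B activate the kinase CDK1, the Aurora and Polo-like kinases carry the signal to centrosomes and chromosomes, and the spindle checkpoint holds back an ubiquitin ligase until every kinetochore is attached. That ligase then destroys securin and cyclin B, separase opens the cohesin rings, and kinesins and cytokinesis proteins divide the cell. Both drugs are incorporated into DNA and trap DNA methyltransferases, and azacitidine is also incorporated into RNA.

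Values are MAS5 signals on a linear scale, which the authors had scaled so that the trimmed mean of each array was close to 500 (range over the arrays, 500.125 to 500.159). The median signal of an array lay between 92.7 and 123. Differences are given as log2 of the signal plus 32, with limma's moderated test over all 28 arrays, and "rose" and "fell" are used where the Benjamini-Hochberg adjusted p over 8024 genes was below 0.05. Nothing in the labels says whether the 2 arrays of a group came from separate cultures, so p-values measure the spread between these arrays, which may be technical. Fewer cells in G2 or mitosis and less of these RNAs per cell cannot be told apart in RNA from whole cultures. Among 6 markers of lung epithelium the epithelial keratin gene KRT18 had the highest signal in both lines, reaching 7824 in H1299 and 15650 in A549. The lowest signal of these 6 markers was 0.927 in H1299 and 42.1 in A549. Their summed signal on an array was at most 9273 in H1299, so KRT18 stood for most of it on the H1299 array where KRT18 was highest. The highest signal of any of the 8 measured leukocyte markers was 65.8 in H1299 and 77.1 in A549, below the median signal of every array. The highest of 5 endothelial markers reached 101 in H1299 and 70.2 in A549, and the highest of 6 fibroblast markers reached 185 in H1299 and 331 in A549, for the collagen gene COL1A1.

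In H1299 cells given azacitidine at 3 µM, every one of the 57 genes fell, and for every one of them both azacitidine arrays lay below both vehicle arrays. The median log2 difference was -1.10, and single genes ranged from -2.48 for CDCA3 to -0.30 for the checkpoint protein gene BUB3. Among all genes tested, 21.6% fell in the same comparison, or 27.9% when each array was first centred on its median. Centring moved the median difference of all genes from 0.08 to -0.05 and the median of the 57 genes from -1.10 to -1.22. With any 1 of the 4 arrays left out, between 53 and 55 of the 57 genes fell.

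**Figure D1:**
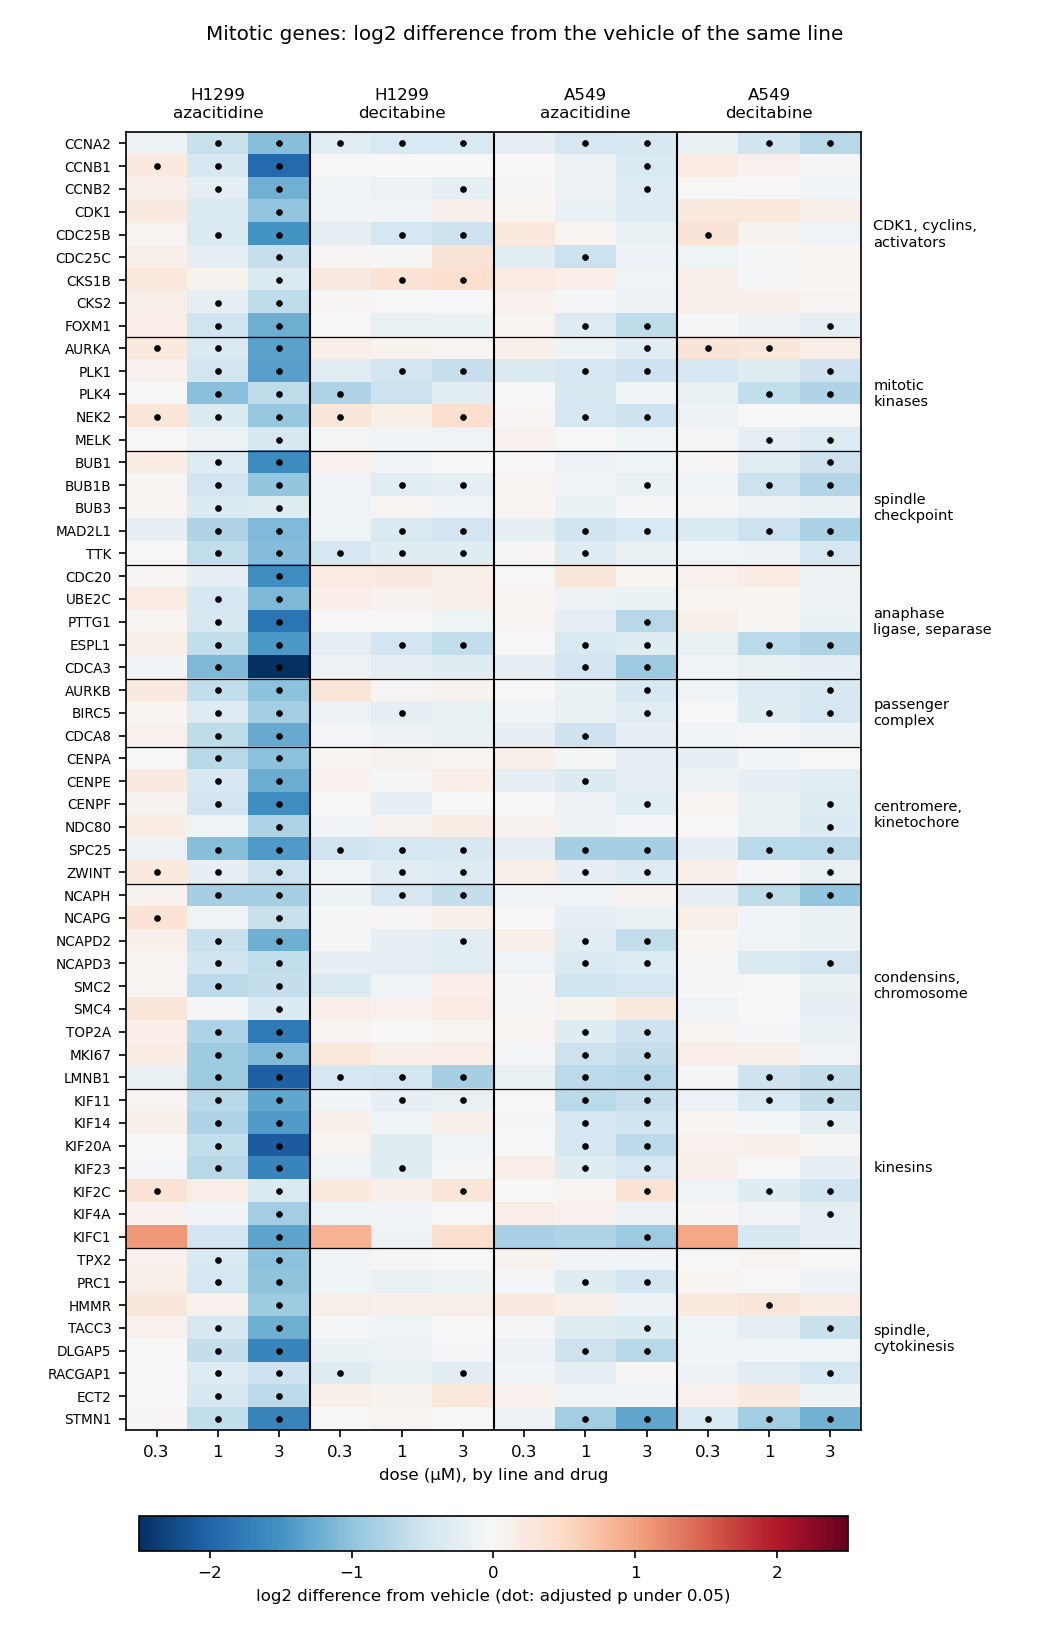
Log2 difference from the vehicle of the same line for each of the 57 genes (down the page, grouped by role) in the 12 drug groups (across, H1299 left of A549, doses low to high within a drug). Blue marks lower and red higher than vehicle, and a dot marks an adjusted p under 0.05. The column of H1299 azacitidine at 3 µM is blue with a dot in all 57 genes, and the 0.3 µM column of the same drug holds 6 dots, all red.

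All 9 genes of CDK1, its cyclins and its activators fell in H1299 at azacitidine 3 µM, with a median log2 difference of -1.07. CCNB1, which encodes cyclin B1, had signals of 1489 and 1399 on the azacitidine 3 µM arrays, against 5517 and 5735 on the vehicle arrays. Its difference of -1.94 (SE 0.07, adjusted p = 3.26e-15) was the largest in this group, and the groups did not overlap. CDC25B, a phosphatase that activates CDK1, had signals of 500.3 and 470.9 on the azacitidine arrays, against 1462 and 1374 on the vehicle arrays, a difference of -1.49 (SE 0.09, adjusted p = 1.5e-11). The kinase gene itself moved less: CDK1 had 2769 and 2904 on the azacitidine arrays, against 5818 and 5465 on the vehicle arrays, a difference of -0.98 (SE 0.16, adjusted p = 1.7e-05). The transcription factor gene FOXM1, an activator of many of the other genes, fell by 1.22 on the log2 scale. The small CDK-binding subunit CKS1B fell least, by 0.36.

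All 5 mitotic kinases fell, with a median of -0.96. PLK1, the Polo-like kinase of mitotic entry, had 127.8 and 159.8 on the azacitidine 3 µM arrays, against 415.3 and 416.5 on the vehicle arrays, a difference of -1.36 (SE 0.15, adjusted p = 1.98e-07). AURKA, the centrosomal Aurora kinase, had 1095 and 1170 on the azacitidine arrays, against 2959 and 2879 on the vehicle arrays, a difference of -1.34 (SE 0.07, adjusted p = 1.75e-12). Both genes were well separated from vehicle, and the smallest change of the group was -0.41, for the kinase MELK.

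The 5 spindle checkpoint genes had a median of -1.09, and all fell. BUB1, a checkpoint kinase at kinetochores, had 764.3 and 857.7 on the azacitidine 3 µM arrays, against 2435 and 2510 on the vehicle arrays, a difference of -1.57 (SE 0.10, adjusted p = 3.76e-11). MAD2L1, which encodes the checkpoint inhibitor MAD2, had 1630 and 1869 on the azacitidine arrays, against 4228 and 3410 on the vehicle arrays, a difference of -1.11 (SE 0.11, adjusted p = 5.93e-08). BUB3, at the other end of the group, had 2631 and 2872 on the azacitidine arrays, against 3244 and 3534 on the vehicle arrays. Its groups lay apart by less than the others, with an adjusted p of 0.0183.

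The largest median of the 9 role groups, -1.56, belonged to the 5 genes of the anaphase ubiquitin ligase, securin and separase. CDCA3, which promotes mitotic entry and is itself degraded by that ligase, had 175.3 and 209.8 on the azacitidine 3 µM arrays, against 1146 and 1296 on the vehicle arrays. Its difference of -2.48 (SE 0.14, adjusted p = 3.19e-12) was the largest of all 57 genes. The securin gene PTTG1 had 1990 and 1986 on the azacitidine arrays, against 7074 and 7194 on the vehicle arrays, a difference of -1.83 (SE 0.10, adjusted p = 1.83e-12). CDC20, the ligase's activator, fell by 1.56, the separase gene ESPL1 fell by 1.44 and the ubiquitin-conjugating enzyme gene UBE2C fell by 1.13 on the log2 scale.

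The chromosomal passenger complex corrects faulty kinetochore attachments and marks the division plane, and its 3 genes all fell, with a median of -1.03. AURKB, its kinase, had 467.5 and 331.1 on the azacitidine 3 µM arrays, against 858.9 and 821.8 on the vehicle arrays, a difference of -1.03 (SE 0.12, adjusted p = 3.15e-07). CDCA8, which encodes borealin, had 463.4 and 434.4 on the azacitidine arrays, against 1066 and 1167 on the vehicle arrays, a difference of -1.25 (SE 0.09, adjusted p = 5.24e-10). The azacitidine and vehicle arrays did not overlap for either gene.

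The 6 centromere and kinetochore genes fell with a median of -1.13. CENPF, a large kinetochore protein, had 564 and 580.4 on the azacitidine 3 µM arrays, against 1753 and 1711 on the vehicle arrays, a difference of -1.55 (SE 0.09, adjusted p = 4.26e-12). SPC25, a subunit of the microtubule-binding NDC80 complex, had 656.4 and 571.4 on the azacitidine arrays, against 1617 and 1759 on the vehicle arrays, a difference of -1.41 (SE 0.12, adjusted p = 3.27e-09). The kinetochore protein gene ZWINT changed least of the 6, by -0.54.

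The 9 genes of condensins, chromosome and nuclear structure had the smallest group median, -0.83, and also some of the largest single changes. LMNB1, which encodes lamin B1 of the nuclear envelope, had 206.7 and 160 on the azacitidine 3 µM arrays, against 939 and 770.9 on the vehicle arrays, a difference of -2.04 (SE 0.14, adjusted p = 9.82e-11). TOP2A, the topoisomerase that untangles sister chromatids, had 816.4 and 770.6 on the azacitidine arrays, against 2714 and 2881 on the vehicle arrays, a difference of -1.78 (SE 0.08, adjusted p = 1.35e-13). MKI67, the Ki-67 gene used to mark dividing cells, had 548.3 and 537.9 on the azacitidine arrays, against 1185 and 1213 on the vehicle arrays, a difference of -1.10 (SE 0.09, adjusted p = 3.03e-09). Within the condensins the difference ran from -1.22 for NCAPD2 to -0.34 for SMC4.

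The 7 kinesins are motor proteins of the spindle, and they fell with a median of -1.32. KIF20A, a kinesin of the central spindle, had 186.8 and 274.2 on the azacitidine 3 µM arrays, against 1022 and 1099 on the vehicle arrays, a difference of -2.08 (SE 0.15, adjusted p = 2.07e-10). KIF23, another central spindle kinesin, had 349.3 and 324 on the azacitidine arrays, against 1088 and 1170 on the vehicle arrays, a difference of -1.66 (SE 0.08, adjusted p = 7.22e-13). The microtubule-depolymerising kinesin KIF2C moved least, by -0.37, with 1262 and 1420 on the azacitidine arrays, against 1711 and 1767 on the vehicle arrays. The probe set of KIFC1 was dim, with 12.8 and 17.1 on the azacitidine arrays, against 126.7 and 54.9 on the vehicle arrays, and its SE of 0.34 was the widest of the 57 genes. Both azacitidine signals lay below the 25th percentile of their arrays (20.4 and 18.6), so the size of its differences from that group is not well measured.

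The 8 genes of spindle assembly and cytokinesis had a median of -1.02. STMN1, which encodes the microtubule destabiliser stathmin, had 599.4 and 453.3 on the azacitidine 3 µM arrays, against 1788 and 1660 on the vehicle arrays, a difference of -1.66 (SE 0.12, adjusted p = 1.35e-10). DLGAP5, a spindle assembly factor, had 601.9 and 618.4 on the azacitidine arrays, against 2036 and 1914 on the vehicle arrays, a difference of -1.64 (SE 0.07, adjusted p = 3.27e-14). RACGAP1, of the central spindle, changed least of the 8, by -0.51, and every array of the 3 µM group again lay below both vehicle arrays.

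**Figure D2:**
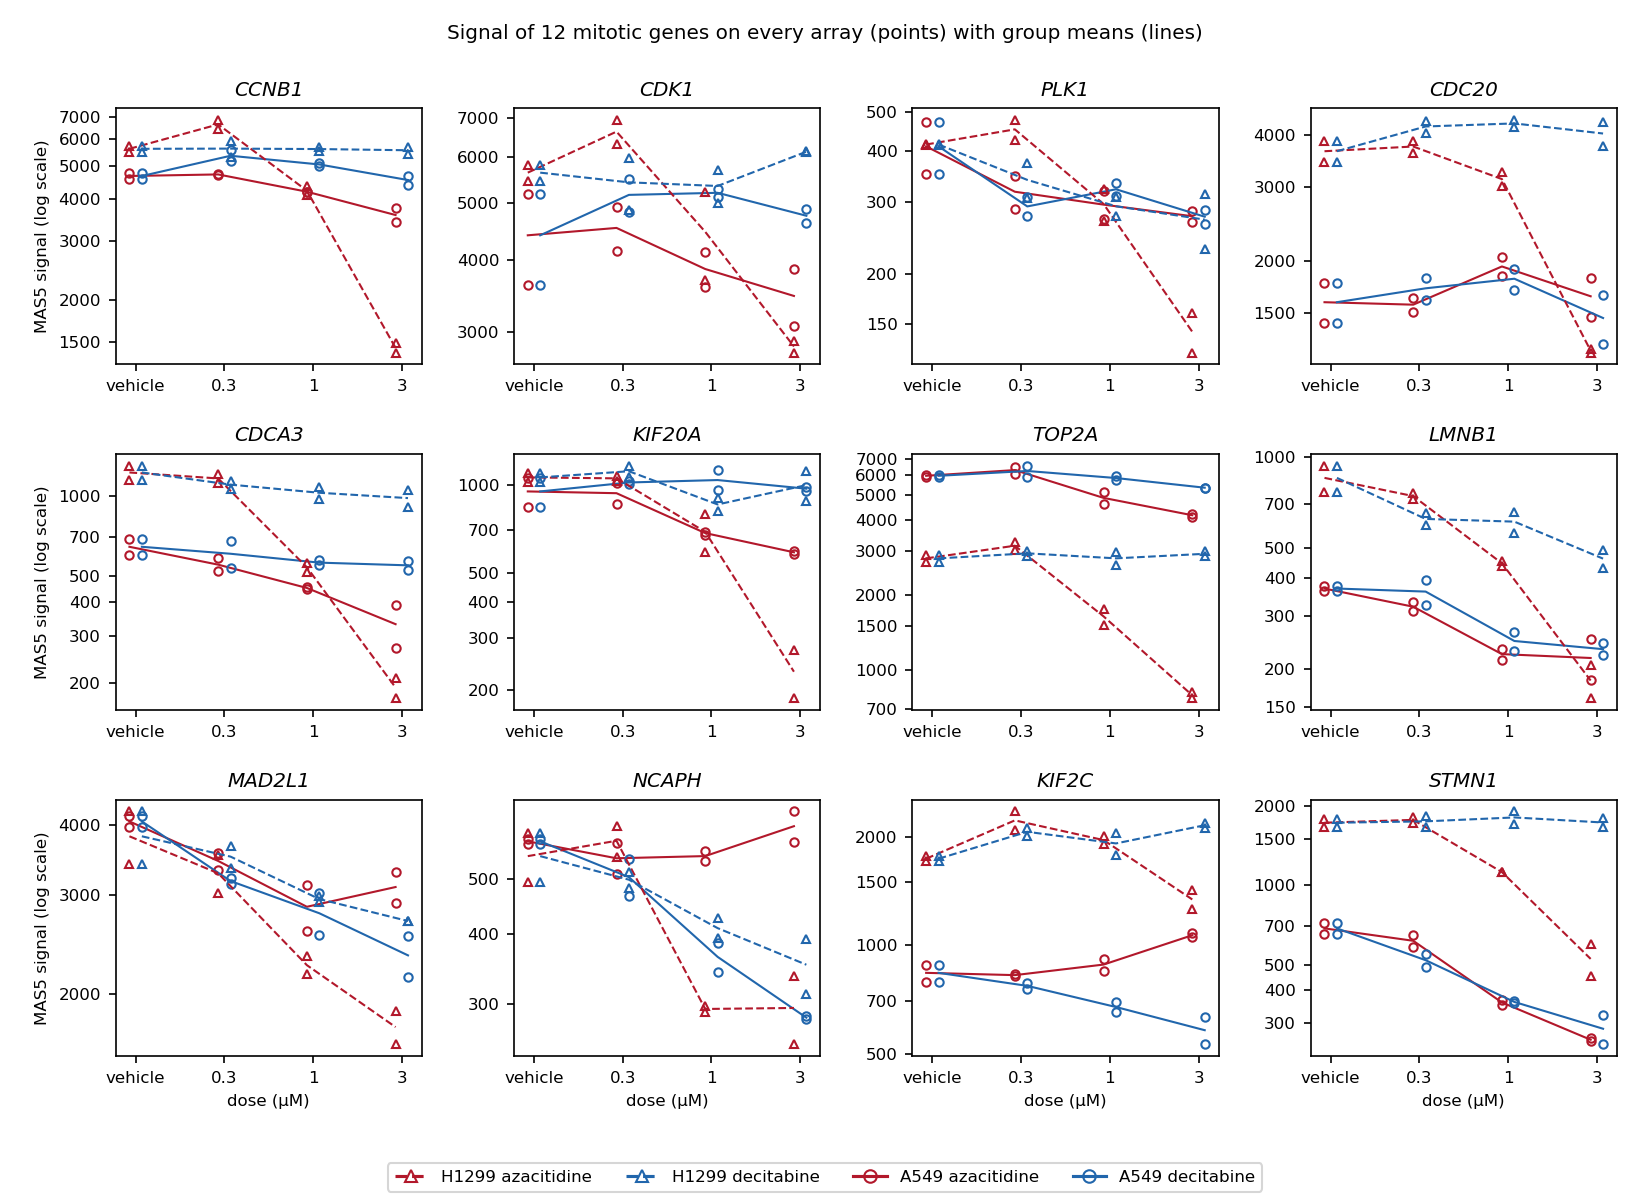
Signal of 12 of the genes on each of the 28 arrays (y axis, MAS5 signal on a log scale) against vehicle and dose in µM (x axis), with H1299 as triangles, A549 as circles, azacitidine in red and decitabine in blue. Points are single arrays, lines join the means of 2 arrays, and the vehicle arrays of a line are drawn once for each drug. In H1299 both azacitidine arrays at 3 µM lie below both vehicle arrays in all 12 panels, for example at 1489 and 1399 for CCNB1, against 5517 and 5735.

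Many genes of this wave are known to carry a cell cycle genes homology region, a short promoter element bound by the MuvB core complexes, next to CCAAT boxes bound by NF-Y. Promoters from RefSeq on GRCh38.p14, 250 bases before to 50 after each annotated start, were listed for 49 of the 57 genes (68 promoters), and were searched on both strands for TTTGAA or TTCGAA and for CCAAT. Where a match of CCAAT shared an end letter with one of the others, both were counted. TTTGAA or TTCGAA was present in 40 of the 68 promoters (58.8%), against 16.4% of all 35093 promoters of that length. CCAAT was present in 67.6% of the 68 promoters, against 34.6% of all, and both kinds together in 48.5%, against 6.37% of all. The other listed genes of mitosis had TTTGAA or TTCGAA in 55.6% of their 72 promoters and CCAAT in 56.9%. The genes of the G1/S transition and replication had them in 5.26% and 56.1% of 57 promoters. The 150 bases before the start of 6 genes are printed as examples. CDCA3, the gene of the largest change, is not among them. Motif letters of either strand are in capitals. Where 2 starts were listed, the start with the most matches was printed. The other LMNB1 start had no match, and the other CDK1 start had 1 TTTGAA match and 1 CCAAT match.
CCNB1 (chr5:69167000-69167149, plus strand): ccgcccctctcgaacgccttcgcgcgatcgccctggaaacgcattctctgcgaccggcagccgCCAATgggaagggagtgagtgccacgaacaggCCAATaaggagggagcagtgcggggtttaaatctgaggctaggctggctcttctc
CDK1 (chr10:60778328-60778477, plus strand, 1 of 2 starts listed): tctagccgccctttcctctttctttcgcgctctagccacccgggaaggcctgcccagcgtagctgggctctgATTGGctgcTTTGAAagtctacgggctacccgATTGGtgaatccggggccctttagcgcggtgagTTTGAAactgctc
PLK1 (chr16:23678739-23678888, plus strand): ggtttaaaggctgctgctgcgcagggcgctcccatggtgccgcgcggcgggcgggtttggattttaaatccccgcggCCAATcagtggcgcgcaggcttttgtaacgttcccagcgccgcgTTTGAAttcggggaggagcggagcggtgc
CDC20 (chr1:43358831-43358980, plus strand): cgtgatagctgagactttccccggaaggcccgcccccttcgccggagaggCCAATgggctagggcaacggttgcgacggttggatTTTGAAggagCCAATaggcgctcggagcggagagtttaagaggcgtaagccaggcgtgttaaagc
KIF20A (chr5:138178962-138179111, plus strand): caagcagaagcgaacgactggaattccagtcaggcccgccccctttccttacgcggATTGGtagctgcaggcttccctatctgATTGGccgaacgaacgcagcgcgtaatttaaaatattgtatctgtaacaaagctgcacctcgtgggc
LMNB1 (chr5:126776986-126777135, plus strand, 1 of 2 starts listed): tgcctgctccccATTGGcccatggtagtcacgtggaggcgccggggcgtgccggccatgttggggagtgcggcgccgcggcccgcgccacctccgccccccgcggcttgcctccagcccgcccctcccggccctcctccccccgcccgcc
Of the letters searched, CDK1, PLK1 and CDC20 showed TTTGAA in the printed stretch, whereas CCNB1, KIF20A and LMNB1 showed CCAAT alone. No other letters were searched, so a gene without a match may still carry the promoter element. In H1299 at azacitidine 3 µM the 36 genes with a TTTGAA or TTCGAA match had a median difference of -1.10, and the 13 genes without one had a median of -1.22. A match is a description of letters, not a site or a cause.

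At lower azacitidine doses H1299 cells gave other counts. At 0.3 µM, 6 genes rose: KIF2C (0.34), NCAPG (0.34), NEK2 (0.31), AURKA (0.25), CCNB1 (0.24) and ZWINT (0.24). The median of the 57 genes was 0.10, and 2.46% of all genes tested rose (3.1% with each array centred on its median). No gene fell by limma's test, also at an unadjusted p under 0.05, where 12 rose and 0 fell. CCNB1 had 6427 and 6866 on the 0.3 µM arrays, against 5517 and 5735 on the vehicle arrays, so the groups lay apart in the direction opposite to 3 µM. These 6 calls rested on both arrays of both groups: without vehicle replicate 1 or without vehicle replicate 2, 0 of the 57 genes passed, and without azacitidine 0.3 µM replicate 1 or replicate 2, 1 and 3 passed.

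At azacitidine 1 µM, 45 of the 57 genes fell in H1299, with a median of -0.44, and 15.4% of all genes fell. Fewer of the 57 fell when any single array of these groups was left out. The largest changes were CDCA3 (-1.13), SPC25 (-1.07) and PLK4 (-1.04), the kinase of centriole duplication. CCNB1 had 4105 and 4350 on the 1 µM arrays, between its 3 µM and vehicle signals. Between azacitidine 3 and 0.3 µM, all 57 genes were lower at 3 µM, with a median of -1.26, as were 21.8% of all genes (30.2% with each array centred). CDCA3 differed by -2.41 and CCNB1 by -2.18 between these doses.

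**Figure D3:**
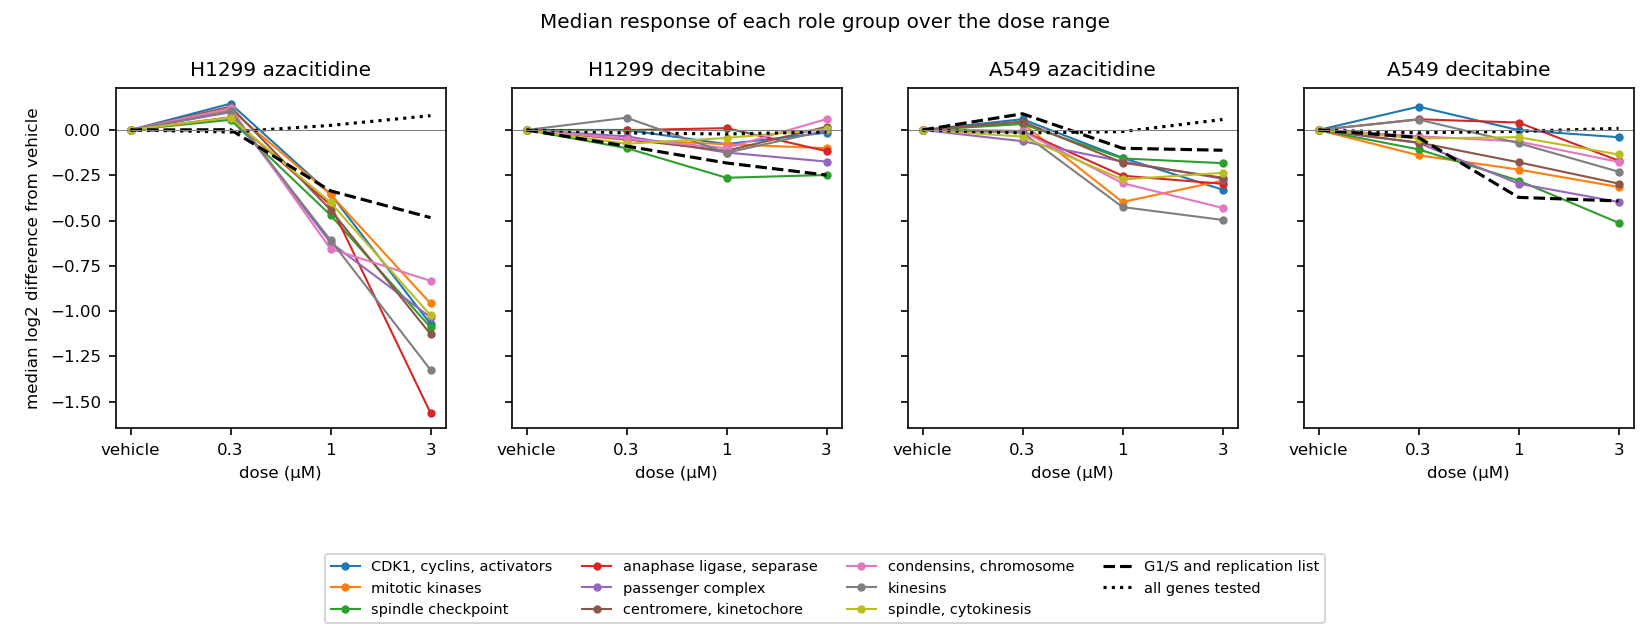
Median log2 difference from vehicle of each of the 9 role groups (y axis) against dose in µM (x axis), by drug, for H1299 and A549, with the median of all genes tested as a dotted line and that of the tested genes of the G1/S transition and DNA replication as a dashed line. Every role group's line for azacitidine in H1299 lies lowest at 3 µM, between -0.83 and -1.56, and the other 3 combinations of line and drug lie closer to 0.

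In H1299 cells decitabine gave 7 called genes at 0.3 µM, 15 at 1 µM and 18 at 3 µM, both directions counted. Azacitidine gave 6 at 0.3 µM, all rising, where 2.46% of all genes rose. At 1 and 3 µM it gave 45 and 57, all falling, where 15.4% and 21.6% of all genes fell. At decitabine 0.3 µM, 6 of the 57 fell and NEK2, a kinase of centrosome separation, rose (0.28), where 8.9% of all genes fell and 8.9% rose, so that the falls were near the share of all genes. PLK4 (-0.77), SPC25 (-0.50) and the checkpoint kinase gene TTK (-0.43) fell most. NEK2 did not pass with any 1 of the 4 arrays left out (adjusted p from 0.0526 to 0.149). The count of genes called was 2 without vehicle replicate 2 or decitabine 0.3 µM replicate 1, and 4 without decitabine 0.3 µM replicate 2.

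At decitabine 1 µM, 14 genes (24.6% of the 57) fell and CKS1B rose (0.35), where 11.6% of all genes fell and 11.8% rose. ESPL1 (-0.48), PLK1 (-0.46) and LMNB1 (-0.46) fell most. Without vehicle replicate 2, decitabine 1 µM replicate 1 or decitabine 1 µM replicate 2, 7 genes passed in all. CKS1B did not pass without vehicle replicate 1 (adjusted p = 0.116) or decitabine 1 µM replicate 2 (adjusted p = 0.0707).

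At decitabine 3 µM, 15 genes (26.3% of the 57) fell and 3 (5.26%) rose, where 14.6% of all genes fell and 16.3% rose, and the median of the 57 genes was -0.02. LMNB1 had 494.3 and 431.4 on the decitabine 3 µM arrays, against 939 and 770.9 on the vehicle arrays, a difference of -0.84 (SE 0.14, adjusted p = 9.12e-05). ESPL1 had 713 and 665.7 on the decitabine arrays, against 1010 and 1133 on the vehicle arrays, a difference of -0.61. NCAPH (-0.60), PLK1 (-0.57) and CDC25B (-0.52) completed the 5 largest. The 3 genes that rose were NEK2 (0.42), CKS1B (0.41) and KIF2C (0.30).

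Most of the core genes gave no call at decitabine 3 µM in H1299. CCNB1 had 5704 and 5437 on the decitabine arrays, against 5517 and 5735 on the vehicle arrays, which overlap, and the 95% interval of its difference ran from -0.16 to 0.13. CDK1 (0.12), TOP2A (0.06), MKI67 (0.16) and AURKB (0.09) did not pass. Without vehicle replicate 2 or without decitabine 3 µM replicate 2, 11 of the 57 genes passed in all. PLK1 did not pass without decitabine 3 µM replicate 2 (adjusted p = 0.14), and KIF2C did not without vehicle replicate 1 (adjusted p = 0.08) or decitabine 3 µM replicate 1 (adjusted p = 0.0804). Between decitabine 3 and 0.3 µM, 5 genes were lower at 3 µM, NCAPH (-0.47), ESPL1 (-0.38), MAD2L1 (-0.37), CDC25B (-0.30) and ZWINT (-0.21), as were 4.26% of all genes. Leaving out either decitabine 3 µM array or decitabine 0.3 µM replicate 1 left 0 or 1 gene called.

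In A549 cells given azacitidine at 3 µM, 31 of the 57 genes fell and 1 rose, with a median of -0.30, where 16.2% of all genes fell and 22.1% rose. STMN1 had 263.2 and 257.3 on the azacitidine 3 µM arrays, against 721.5 and 651.9 on the vehicle arrays, a difference of -1.30 (SE 0.12, adjusted p = 2.41e-08). CDCA3 had 271 and 392.6 on the azacitidine arrays, against 600.6 and 689.3 on the vehicle arrays, a difference of -0.91. SPC25 had 433.6 and 364.8 on the azacitidine arrays, against 703 and 758.3 on the vehicle arrays, a difference of -0.83. The groups did not overlap for any of these genes, and LMNB1 fell by 0.70 on the log2 scale.

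KIFC1 was also among the 5 largest (-0.91), with 22.8 and 13.8 on the azacitidine arrays, against 37.4 and 94.98 on the vehicle arrays. Both azacitidine signals lay below the 25th percentile of their arrays (25.7 and 21.0), so the size is not well measured, and the adjusted p of 0.0385 became 0.388 without A549 vehicle replicate 2, 0.0689 without azacitidine 3 µM replicate 1 and 0.173 without azacitidine 3 µM replicate 2. KIF2C was the gene that rose (0.34, adjusted p = 0.00488), with 1053 and 1082 on the azacitidine arrays, against 885.7 and 794 on the vehicle arrays. Without vehicle replicate 2 its adjusted p was 0.0731.

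Of the core genes, TOP2A (-0.52), MKI67 (-0.59), PLK1 (-0.51), AURKB (-0.41) and CCNB1 (-0.38) fell in A549 at azacitidine 3 µM. CDK1 had 3078 and 3850 on the azacitidine arrays, against 3620 and 5186 on the vehicle arrays, which overlap, and its difference of -0.33 did not pass (adjusted p = 0.102). Without vehicle replicate 1 that p was 0.0107, and with the mean of all kept CDK1 probe sets it was 0.000655. The adjusted p of PLK1 was 0.189 when vehicle replicate 1 was left out and 0.0709 when replicate 1 of the azacitidine 3 µM group was. That of AURKB was 0.096 when vehicle replicate 2 was left out and 0.127 when the same azacitidine array was.

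By role in A549 at azacitidine 3 µM, 5 of 7 kinesins fell and 1 rose. In the same comparison 5 of 9 condensin, chromosome and nuclear structure genes fell, and 2 of 5 checkpoint genes fell. Among all genes 16.2% fell and 22.1% rose. At 1 µM, 25 genes fell, with a median of -0.25, as did 12.1% of all genes, led by STMN1 (-0.87), SPC25 (-0.83) and KIF11 (-0.68), the kinesin that separates the spindle poles. Without azacitidine 1 µM replicate 2 that count was 16. At 0.3 µM, 0 of the 57 genes passed limma's test, and at an unadjusted p under 0.05, 3 fell and 5 rose. Between 3 and 0.3 µM, 32 genes were lower at 3 µM and KIF2C was higher (0.35), where 13.4% of all genes were lower and 21% higher (18.6% and 13.4% with each array centred).

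Decitabine in A549 cells lowered 26 of the 57 genes at 3 µM, with a median of -0.21, and 10.8% of all genes. STMN1 had 250 and 322.8 on the decitabine 3 µM arrays, against 721.5 and 651.9 on the vehicle arrays, a difference of -1.18 (SE 0.12, adjusted p = 2.27e-07). NCAPH, a condensin subunit, had 281.7 and 285.7 on the decitabine arrays, against 577.5 and 588.1 on the vehicle arrays, a difference of -0.96. MAD2L1 had 2149 and 2543 on the decitabine arrays, against 4156 and 3961 on the vehicle arrays, a difference of -0.79. No array of the decitabine group reached a vehicle value for these genes. ESPL1 (-0.76) and PLK4 (-0.75) followed.

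The spindle checkpoint held 4 falling genes of 5 in A549 at decitabine 3 µM, with a median of -0.51, and the kinetochore group 4 of 6. Of the 9 genes of CDK1, its cyclins and activators 2 fell, and that group's median was -0.04. Among all genes 10.8% fell. PLK1 (-0.51) and AURKB (-0.40) fell, while CDK1 (0.13), CCNB1 (-0.04), TOP2A (-0.16) and MKI67 (-0.09) did not pass. TOP2A and MKI67 have several kept probe sets, and with their mean the adjusted p was 0.00735 for TOP2A (-0.22) and 0.00349 for MKI67 (-0.31).

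The A549 decitabine counts leaned on single arrays. Without decitabine 3 µM replicate 1, 17 of the 57 genes passed. PLK1 did not pass without vehicle replicate 1 (adjusted p = 0.244), decitabine 3 µM replicate 1 (adjusted p = 0.0514) or decitabine 3 µM replicate 2 (adjusted p = 0.09). PLK4 did not without vehicle replicate 1 (adjusted p = 0.105) or decitabine 3 µM replicate 1 (adjusted p = 0.128), nor AURKB without vehicle replicate 2 (adjusted p = 0.122) or decitabine 3 µM replicate 2 (adjusted p = 0.167).

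At decitabine 1 µM in A549, 13 genes fell, led by STMN1 (-0.87), ESPL1 (-0.67) and SPC25 (-0.66), and 6.79% of all genes fell. AURKA (0.28) and the hyaluronan-binding spindle protein gene HMMR (0.30) rose, and 9.78% of all genes rose. AURKA did not pass without vehicle replicate 2 (adjusted p = 0.0521) or decitabine 1 µM replicate 2 (adjusted p = 0.0664), nor HMMR without vehicle replicate 1 (adjusted p = 0.284) or decitabine 1 µM replicate 1 (adjusted p = 0.279). Without decitabine 1 µM replicate 2, 8 of the 57 genes passed.

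At decitabine 0.3 µM in A549, STMN1 fell (-0.38) and CDC25B (0.33) and AURKA (0.32) rose, where 3.38% of all genes fell and 4.31% rose (2.39% and 5.62% with each array centred). STMN1 had an adjusted p of 0.0465, which was 0.284 without vehicle replicate 1, 0.0574 without vehicle replicate 2, 0.283 without decitabine 0.3 µM replicate 1 and 0.0734 without decitabine 0.3 µM replicate 2. The count of genes called was 1 without vehicle replicate 1 or either decitabine 0.3 µM array. Between decitabine 3 and 0.3 µM, 26 genes were lower at 3 µM, KIFC1 (-1.22), STMN1 (-0.80), NCAPH (-0.76) and the checkpoint kinase gene BUB1B (-0.63) most, against 3.2% of all genes (4.33% with each array centred). With any 1 of these 4 arrays left out, between 12 and 16 genes passed.

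The drugs were compared directly at matched doses, in 6 pairs of groups. At 3 µM in H1299, 54 of the 57 genes were lower with azacitidine than with decitabine, with a median of -1.01, as were 23.3% of all genes (30.6% with each array centred). CDCA3 had 175.3 and 209.8 on the azacitidine arrays, against 1049 and 910.7 on the decitabine arrays, a difference of -2.17. KIF20A had 186.8 and 274.2 on the azacitidine arrays, against 1115 and 881.2 on the decitabine arrays, a difference of -1.98. CCNB1 (-1.92) and TOP2A (-1.84) followed, then KIFC1 (-1.73) with its dim azacitidine signals, and the arrays of the drugs did not overlap for any of these genes. The 3 genes without a call were BUB3 (95% interval -0.42 to 0.01), PLK4 (-0.80 to 0.07) and NCAPH (-0.50 to 0.03), so that for each a lower value with azacitidine lies within the interval.

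At 1 µM in H1299, 34 genes were lower with azacitidine than with decitabine, as were 15% of all genes (18.1% with each array centred), led by MKI67 (-1.03), CDCA3 (-0.88) and the centromeric histone gene CENPA (-0.78). At 0.3 µM the direction was the opposite: 7 genes were higher with azacitidine, PLK4 (0.76), TTK (0.43), ESPL1 (0.38), NCAPG (0.37), ZWINT (0.35), PRC1 (0.26) and CCNB1 (0.24), as were 2.37% of all genes. Without decitabine 0.3 µM replicate 1 that count was 1, and without azacitidine 0.3 µM replicate 1 or replicate 2 it was 2.

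In A549 at 3 µM, 18 of the 57 genes (31.6%) were lower and 13 (22.8%) higher with azacitidine than with decitabine. Among all genes 23.8% were lower and 26.6% higher, so the genes divided in shares near those of the whole array. CDCA3 had 271 and 392.6 on the azacitidine arrays, against 528.1 and 571.8 on the decitabine arrays, a difference of -0.70, and KIF20A differed by -0.69. Lower with azacitidine were also DLGAP5 (-0.58), PTTG1 (-0.53), CDK1 (-0.46), TOP2A (-0.36) and CCNB1 (-0.34). NCAPH had 581.5 and 658.5 on the azacitidine arrays, against 281.7 and 285.7 on the decitabine arrays, a difference of 1.04. KIF2C had 1053 and 1082 on the azacitidine arrays, against 632.9 and 532.3 on the decitabine arrays, a difference of 0.84. For all 31 genes called, the arrays of the drugs did not overlap.

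The checkpoint genes BUB1B (0.55), BUB1 (0.41), MAD2L1 (0.40) and TTK (0.23) were higher with azacitidine in A549 at 3 µM, 4 of that group's 5. PLK4 (0.69) was higher too, but did not pass without azacitidine 3 µM replicate 1 (adjusted p = 0.0538) or decitabine 3 µM replicate 1 (adjusted p = 0.104). At 1 µM, 15 genes were lower with azacitidine, MKI67 (-0.68) and KIF20A (-0.57) most, and 5 were higher, NCAPH (0.56), BUB1B (0.47), KIF2C (0.37), ESPL1 (0.29) and MELK (0.23), where 17.9% of all genes were lower and 16.4% higher. At 0.3 µM the dim KIFC1 probe set alone was lower (-1.78), as were 3.63% of all genes, and without azacitidine 0.3 µM replicate 1 it did not pass.

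**Figure D4:**
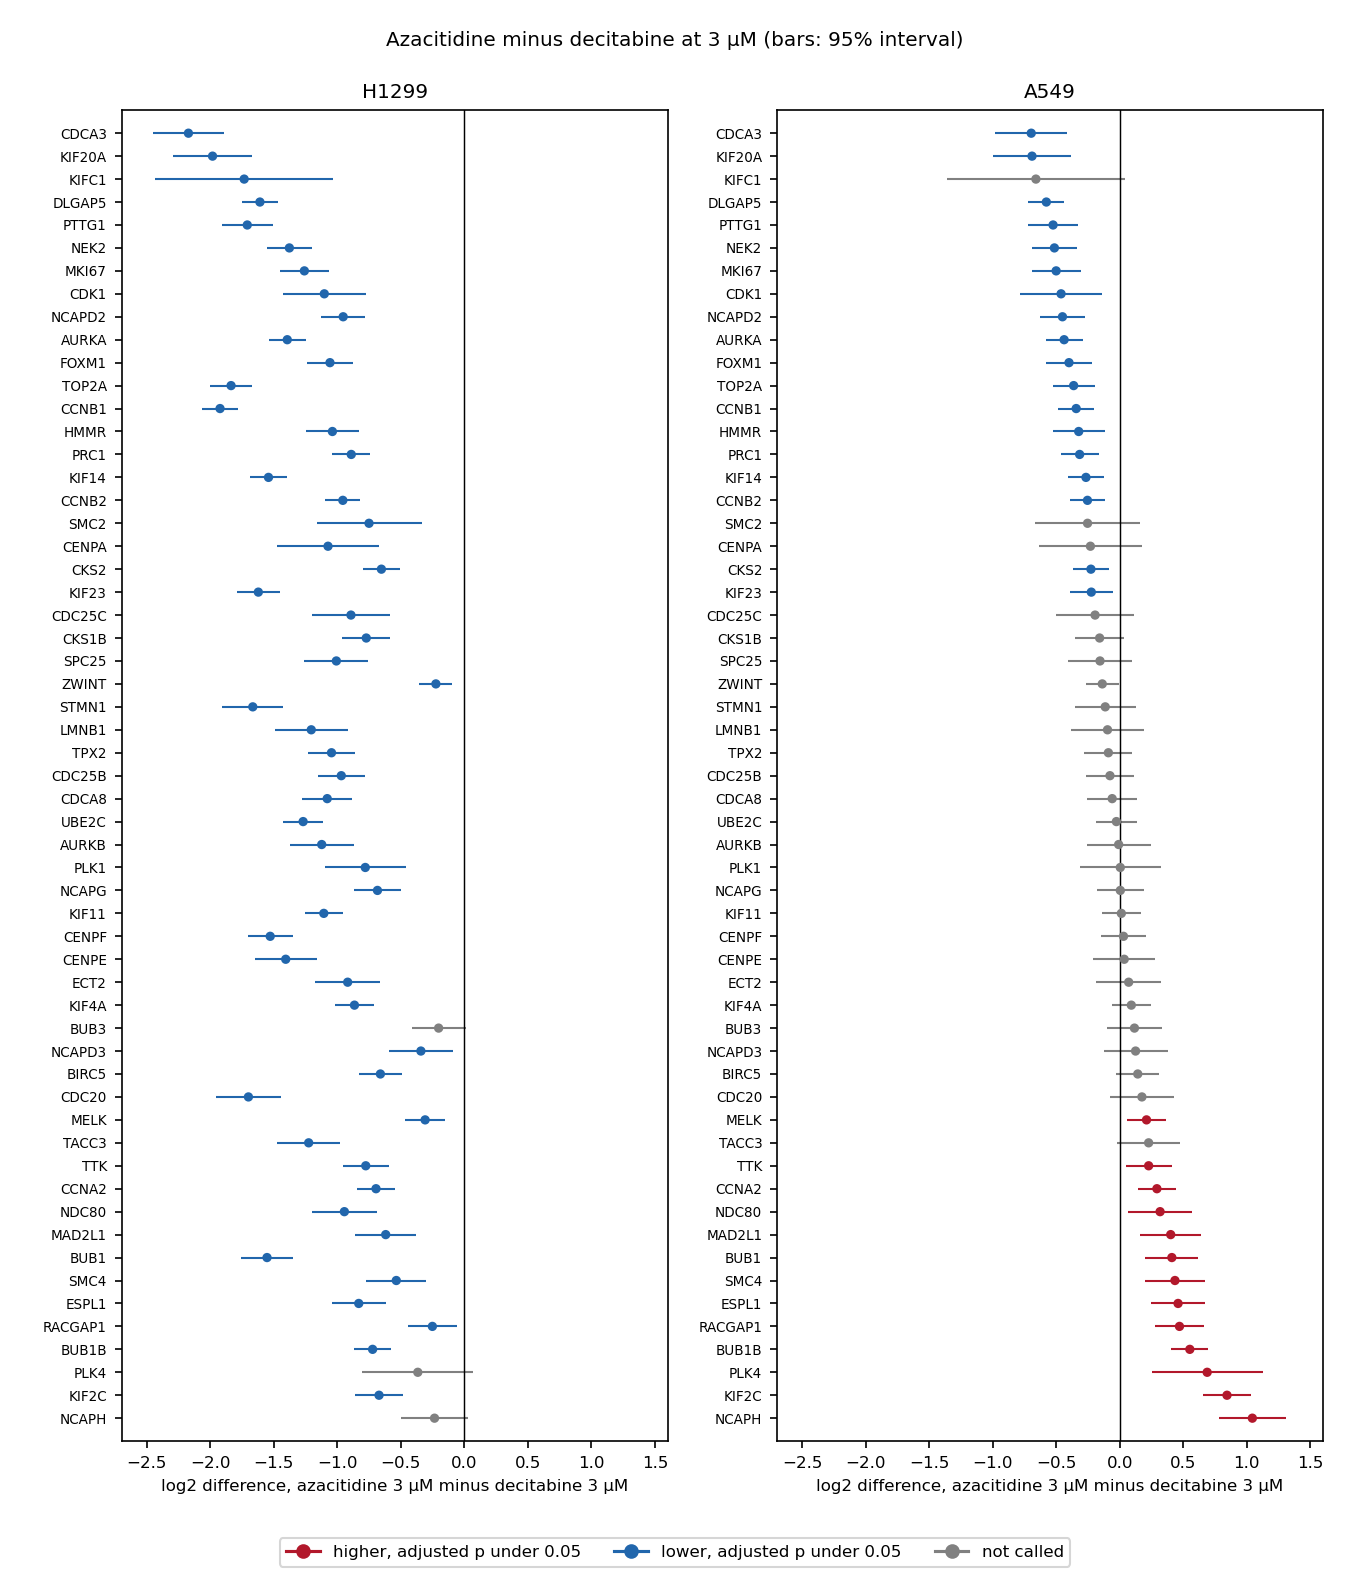
Log2 difference between azacitidine and decitabine at 3 µM (x axis) for each of the 57 genes (down the page), in H1299 and A549, with 95% intervals as bars. In H1299 54 points are called lower and lie left of 0, and in A549 18 are called lower and 13 higher, from CDCA3 at -0.70 to NCAPH at 1.04.

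The responses of the lines were compared by the difference of their differences. For azacitidine at 3 µM, 48 of the 57 genes had a more negative response in H1299 than in A549, with a median of -0.74, as did 13.9% of all genes. CDC20 differed most between the lines, by -1.61 (adjusted p = 5.02e-07): its azacitidine arrays had 1206 and 1231 in H1299, against 3462 and 3868 with vehicle, and 1468 and 1823 in A549, against 1419 and 1766 with vehicle. CDCA3 (-1.57), CCNB1 (-1.56), BUB1 (-1.47) and KIF20A (-1.42) followed. For CDC20 the H1299 groups lay apart and the A549 groups overlapped.

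For decitabine at 3 µM the line difference involved 11 genes. CDC25B had a more negative response in H1299 (-0.42), as did 9.42% of all genes, and 10 genes had a more positive one, as did 7.9% of all genes. STMN1 led these (1.18, adjusted p = 3.14e-05), with 1797 and 1657 on the H1299 decitabine arrays, against 1788 and 1660 with vehicle, beside its fall in A549. KIF2C (0.81), TACC3 (0.57), NDC80 (0.53) and BUB1 (0.49) were next. TACC3, NDC80 and BUB1 each lost their call when certain single arrays were left out, with adjusted p-values up to 0.158, 0.144 and 0.0721 in that order. Without H1299 vehicle replicate 1 the count of genes was 7, and without H1299 decitabine 3 µM replicate 1 it was 6.

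The lines also differed before any drug. With vehicle, 33 genes were higher and 7 lower in H1299 than in A549, where 32.9% of all genes were higher and 32.4% lower. NDC80 had 2543 and 2873 in H1299, against 350.6 and 392.4 in A549, a difference of 2.76, and TTK (1.58) and NCAPG (1.53) were next. TOP2A had 2714 and 2881 in H1299, against 6041 and 5922 in A549, a difference of -1.09, and the cytokinesis protein gene PRC1 differed by -0.66.

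Across all 12 comparisons with vehicle, 52 of the 57 genes had their lowest difference in H1299 at azacitidine 3 µM. In that comparison 21.6% of all genes tested fell and 32.3% rose. The exceptions were PLK4, BUB3 and SMC2, lowest in H1299 at azacitidine 1 µM, and NCAPH and KIF2C, lowest in A549 at decitabine 3 µM. CCNA2 (cyclin A2), LMNB1 and SPC25 fell in 9 of the 12 comparisons, the most of the 57 genes, and 6 of the 57 fell in 1 comparison only. Called higher at least once were 9 genes: CCNB1, CDC25B, CKS1B, AURKA, NEK2, ZWINT, NCAPG, KIF2C and HMMR. These counts over the 12 comparisons were not made for all genes tested, so they do not show what is particular to the 57. The comparisons of one line share their vehicle arrays.

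Other genes of the same processes were counted beside the 57. Of 60 tested other genes of mitosis, 35 (58.3%) fell and 4 (6.67%) rose in H1299 at azacitidine 3 µM, with a median of -0.55, where 21.6% of all genes fell and 32.3% rose (27.9% and 25.6% with each array centred). The largest falls were PSRC1 (-1.92), a microtubule-binding protein, HJURP (-1.75), the chaperone of centromeric histone, and ASPM (-1.68), a spindle pole protein. Higher were, among others, the cohesin subunit STAG1 (1.44) and CDC23 (0.86), a subunit of the anaphase ubiquitin ligase. In H1299 at decitabine 3 µM, 10 of the 60 (16.7%) fell and 7 rose, close to the 14.6% and 16.3% of all genes. In A549 at azacitidine 3 µM, 15 (25%) fell and 4 (6.67%) rose, where 16.2% of all genes fell and 22.1% rose. In A549 at decitabine 3 µM, 24 (40%) fell, where 10.8% of all genes did.

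Of 49 tested genes of the G1/S transition and DNA replication, 31 (63.3%) fell and 3 (6.12%) rose in H1299 at azacitidine 3 µM, where 21.6% of all genes fell and 32.3% rose. The list's median was -0.48, led by the repressor E2F8 (-1.81), the replication protein RPA3 (-1.42) and the DNA ligase LIG1 (-1.38). At decitabine 3 µM in H1299, 21 (42.9%) fell and 3 (6.12%) rose, where 14.6% of all genes fell and 16.3% rose. In A549 at azacitidine 3 µM, 13 (26.5%) fell and 5 (10.2%) rose, where 16.2% of all genes fell and 22.1% rose. In A549 at decitabine 3 µM, 28 (57.1%) fell and 1 rose, where 10.8% of all genes fell, the list's median was -0.39 and E2F8 (-1.25) fell most.

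Of 18 tested upstream regulators of these genes, 8 (44.4%) fell and 3 (16.7%) rose in H1299 at azacitidine 3 µM. Among all genes 21.6% fell and 32.3% rose (27.9% and 25.6% with each array centred). Only 3 regulators rose, and their share was not tested against that of all genes. The regulators named here were chosen after their values were seen, so they do not stand for the list. LIN37, a MuvB subunit, had 2032 and 2107 on the azacitidine arrays, against 778.2 and 717.1 on the vehicle arrays, a difference of 1.43. CDKN1A, which encodes the CDK inhibitor p21, had 1064 and 1163 on the azacitidine arrays, against 451.5 and 421.6 on the vehicle arrays, a difference of 1.29, and the E2F partner TFDP1 fell (-1.08). At decitabine 3 µM in H1299 CDKN1A also rose (1.00), with 922.3 and 890.3, and RB1 fell (-1.07). In A549 CDKN1A had 1044 and 1151 on the azacitidine 3 µM arrays, against 1078 and 1259 on the vehicle arrays, which overlap. With decitabine at 3 µM it had 3767 and 3460 in A549, against the same 1078 and 1259 with vehicle, a difference of 1.61. The arrays of these groups do not overlap, and the part of CDKN1A in the results on the 57 genes was not tested.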

How the data were processed

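Signals on 28 arrays were used as deposited. The intensity values were computed by the authors with MAS5, per the submitters' processing notes, and were already scaled to a common trimmed mean (2% trimmed at each end). They hold 22277 probe sets, of which 19070 were annotated to 1 gene, 1043 to several and 2164 to none. Probe sets above their array's median on at least 2 arrays were kept (13249), and the kept probe set with the highest mean stood for its gene. Groups were taken from the labels.

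Log2(signal + 32) was fitted with limma 3.58.1 in R 4.3.3, with 1 mean for each of 14 groups (14 residual degrees of freedom), an intensity trend and Benjamini-Hochberg adjustment at 0.05. The fit was tested on simulated data. In each of 9 role groups the 2 largest changes in H1299 at azacitidine 3 µM were named, with CDK1, CCNB1, PLK1, AURKB, TOP2A and MKI67 throughout, the 5 largest of each other 3 µM, drug or line comparison and each gene called against the majority. Other names were chosen after their values were seen. The 57 genes and the other lists were chosen with earlier results of these data known. Replicate numbers were not taken to pair the arrays, since not every pair of groups deviated together. A correlation of deviations over 0.1 was found in 2 of 21 pairs of H1299 groups and 9 of 21 pairs of A549 groups. A correlation under -0.1 was found in 0 and 4 pairs in that order. These values do not settle whether some A549 groups were paired. Alternatives were 2 other scalings, 2 pseudocounts, filters, probe set rules, fits and leaving out each array.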

Additional observations from a re-analysis of the deposited data

Results flagged for a closer look

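The lines differed in their response to the same drug and dose by limma's test of the difference between their differences (H1299 minus A549). For azacitidine at 3 µM, 48 of the 57 genes had a more negative response in H1299, as did 13.9% of all genes. The 5 named genes differed by -1.61 (CDC20), -1.57 (CDCA3), -1.56 (CCNB1), -1.47 (BUB1) and -1.42 (KIF20A) on the log2 scale. For decitabine at 3 µM, 1 gene, CDC25B, had a more negative response in H1299, as did 9.42% of all genes. A more positive one was found for 10 genes, and for 7.9% of all genes. The 5 named genes there differed by 1.18 (STMN1), 0.81 (KIF2C), 0.57 (TACC3), 0.53 (NDC80) and 0.49 (BUB1). Of these, TACC3, NDC80 and BUB1 each lost their call when certain single arrays were left out.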

How the results depend on the processing

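The count of genes called stayed within 1.5 times in all 25 comparisons under quantile normalization, median centring, a smaller and a larger pseudocount, and the replicate block, which gave CDK1 in A549 at azacitidine 3 µM an adjusted p of 0.0219. For H1299, other settings moved counts called at azacitidine 0.3 µM (6) to 1 without the intensity trend and 3 with each array's 25th percentile as a covariate, at decitabine 0.3 µM (7) to 4 with the mean of probe sets, between azacitidine and decitabine 0.3 µM (7) to 4 without the trend, and between decitabine 3 and 0.3 µM (5) to 3 without a filter and 2 without the trend. In A549, counts moved to 1 at decitabine 0.3 µM (3) with the line fitted alone or with the covariate, and to 0 between the drugs at 0.3 µM (1) with a filter at the 75th percentile. With single arrays left out, counts ran in H1299 from 0 to 3 at azacitidine 0.3 µM, 2 to 5, 7 to 10 and 11 to 15 at decitabine 0.3, 1 and 3 µM, 1 to 6 between the drugs at 0.3 µM, and 0 to 4 between decitabine doses. In A549 they ran from 16 to 22 at azacitidine 1 µM, 1 to 4, 8 to 13 and 17 to 22 at decitabine 0.3, 1 and 3 µM, 0 to 1 between the drugs at 0.3 µM, and 12 to 16 between decitabine doses. The difference between lines for decitabine ran from 6 to 11. Among 81 named results, none changed direction where it was called in the main fit or in the alternative. With the filter at the 75th percentile 75 of the 81 were still tested. Changes of direction in results called in neither were not counted. Counts were also lower with any single array left out in H1299 at azacitidine 1 µM and between the drugs at 1 µM. In A549 this held at azacitidine 3 µM, between azacitidine 3 and 0.3 µM, and between the drugs at 1 and 3 µM. It held between the lines with vehicle too. The cause of the moved counts was not tested. Having 2 arrays a group limits precision, and dim probe sets such as KIFC1 (adjusted p 0.0609 to 0.0751 with quantile normalization, the larger pseudocount or no filter, for azacitidine 3 µM in A549) have the least. STMN1 at decitabine 0.3 µM and HMMR at decitabine 1 µM in A549 also lost their calls under several settings, as did NDC80 for the line difference.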
